A study of Rattus norvegicus with 15 samples.

Results

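The genes considered here were Ppargc1a and 9 early genes that contraction and nerve activity switch on in skeletal muscle: Nr4a1, Nr4a2, Nr4a3, Fos, Fosb, Junb, Egr1, Atf3 and Sik1. They were the rows of the expression table whose gene symbol is on this list. All 10 were found among 37991 genes, and all 10 passed the filter on low counts, which kept 17201 genes. The table covers multifidus, a paraspinal muscle of the back, in 15 RNA sequencing libraries from wild type male Sprague Dawley rats aged 12 weeks and weighing 340–370 g. The 2 control libraries came from uninjured rats. In the operated rats a hemilaminectomy had been made and the left L5 spinal nerve ligated, so that the muscle was both injured and denervated, and 2 libraries came from rats that received nothing afterwards (surgery). The 4 pMT libraries came from operated rats injected with human plasma-derived mitochondria (pMT), 25 µg in 100 µL of buffer per site and 50 µg per rat. Injection followed the operation by 2 weeks and tissue was taken 2 weeks later. VitD, as cholecalciferol, was given after surgery at 150 µg per site and 300 µg per rat, alone in 3 libraries (VitD) and with the same pMT dose in 4 (pMT/VitD). The days for the groups with VitD are not given in the sources used here. No group received the injection buffer alone. The labels do not say that each library is a separate rat, so p-values measure only the spread between these samples, which may be technical.

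In a resting fibre these genes are kept low. Each contraction releases calcium and activates calcium-dependent and cAMP-dependent kinases, which phosphorylate CREB, the factor that binds the cAMP response element (CRE). CREB and its CRTC partners switch on Ppargc1a, the Nr4a receptors and Sik1 within minutes to hours, while growth factor and stress kinases act through serum response factor on Fos, Fosb and Egr1. Ppargc1a encodes PGC-1α, a coactivator that drives mitochondrial biogenesis, oxidative metabolism and angiogenesis in muscle. Transcripts of early genes also respond to handling, anaesthesia and the interval before tissue is frozen.

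The labelled tissue was borne out by its defining markers, since all 9 muscle fibre markers were detected in every group. Their summed level was 102207 to 179339 CPM. CPM is the count scaled for library size multiplied by edgeR's TMM factor, a correction computed for each library. These factors ran from 0.849 to 1.20. Libraries held 52342134 to 73557878 counts. The libraries pMT-4 and pMT/VitD-4 stood apart from their labels. The spread of log2 ratios over well-expressed genes was 0.29 to 0.52 between pMT-4 and the other pMT libraries but 0.15 to 0.25 between pMT-4 and pMT/VitD-1 to 3. For pMT/VitD-4 it was 0.35 to 0.47 against its own group and 0.17 to 0.22 against pMT-1 to 3. Over the 10 early genes, pMT-4 differed on average by 1.11 (log2) from the mean of pMT-1 to 3 and by 0.180 from that of pMT/VitD-1 to 3. The same measure was 1.86 for pMT/VitD-4 against its own group and 0.941 against pMT-1 to 3. Results that rest on them are therefore given on all 15 libraries, as labelled, and on 13 libraries without these 2. Whether this reflects labels, tissue or rats was not tested. The 2 libraries were singled out from these same data, with the 10 early genes among the values given. The p-values on 13 libraries are therefore not independent of that choice.

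Levels per transcript length, as median TPM (the authors' length-scaled unit) over the 15 libraries, ranked Nr4a1 first at 69.2, then Atf3 (46.7), Fos (15.9), Junb (14.6), Egr1 (9.12), Ppargc1a (4.84), Nr4a3 (2.07), Sik1 (1.09), Fosb (0.397) and Nr4a2 (0.187). Across libraries the ranges of Nr4a1 (33.2 to 95.5 TPM) and Atf3 (4.998 to 81.2 TPM) overlapped, as did those of Fos (1.49 to 33.9 TPM) and Junb (7.21 to 30.4 TPM). Within a library, Nr4a1 exceeded Atf3 in all but pMT-1, and Sik1 exceeded Fosb in all. The order of Fos and Junb changed between libraries. Ppargc1a was the steadiest of the 10, with a highest library 1.55 times its lowest in CPM. The other extreme was Fosb, at 23.3 times, followed by Fos at 16.6, Nr4a3 at 13.02 and Atf3 at 11.9 times.

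**Figure D1:**
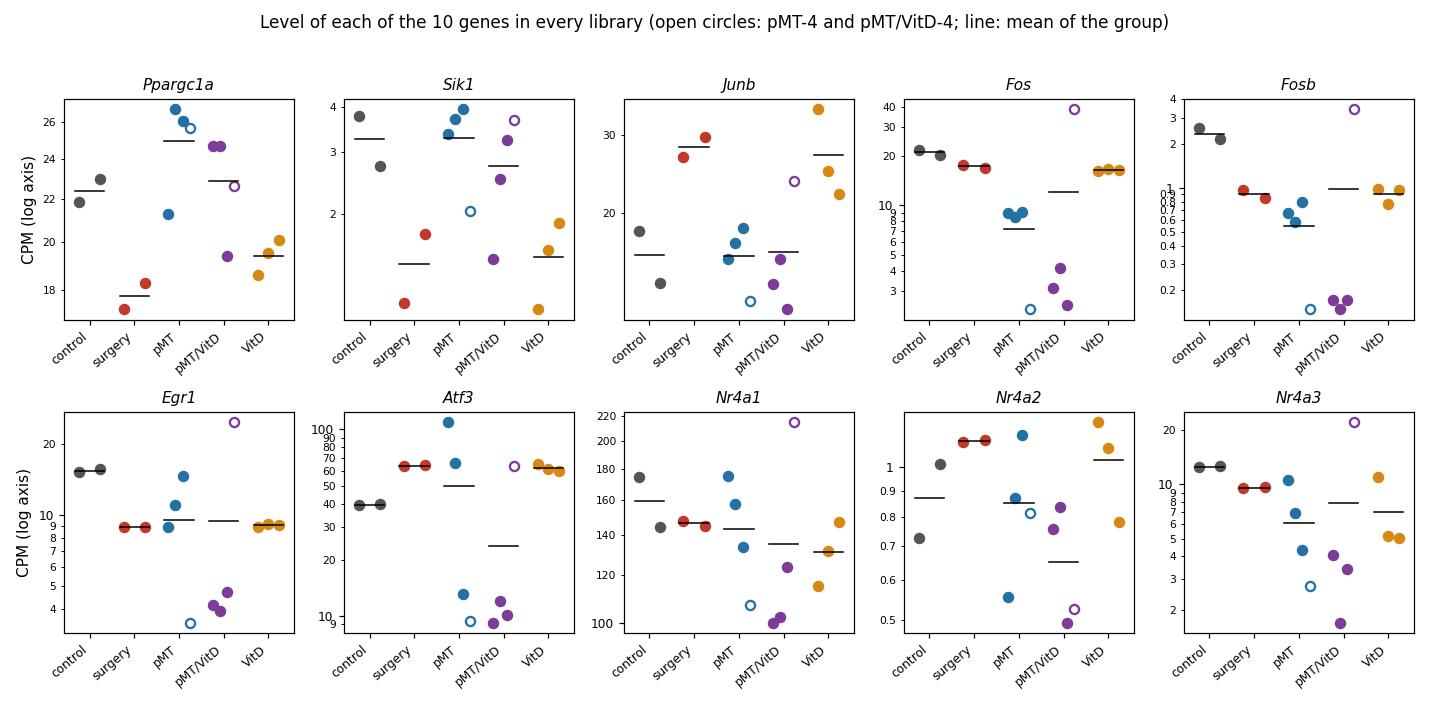
CPM of each of the 10 genes (y axis, log scale) in the 15 libraries by group (x axis), with 1 point per library and a line at the group mean. Open circles mark pMT-4 and pMT/VitD-4, which for Fos, at 2.33 and 38.7 CPM, lie at the 2 ends of the range.

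The first question was whether each gene differed anywhere among the 5 groups. With edgeR's quasi-likelihood F-test on 15 libraries, 2 of the 10 genes passed an adjusted p of 0.05, where 11.8% of all genes tested passed. They were Junb (adjusted p = 0.0329) and Ppargc1a (adjusted p = 0.0489). Sik1 followed at 0.0594, and the other 7 lay between 0.343 and 0.932. On 13 libraries 8 of the 10 passed, against 29.8% of all genes. Fos (5.39e-06), Fosb (3.94e-05) and Egr1 (0.000179) then had the smallest adjusted p, and Ppargc1a (0.0511) and Nr4a2 (0.399) did not pass. The number of these genes that changed therefore rested on pMT-4 and pMT/VitD-4. Of the 2 genes called on 15 libraries, Ppargc1a lost its call in 17 of 24 alternative analyses and Junb in 10 of 24.

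Ppargc1a, the coactivator itself, was lowest in surgery and highest in pMT. Its level was 21.8 and 22.9 CPM in control and 17.3 and 18.3 CPM in surgery. The pMT libraries gave 21.2, 26.8, 26.1 and 25.7 CPM, the pMT/VitD libraries 24.7, 24.7, 19.4 and 22.6 CPM, and the VitD libraries 18.6, 19.5 and 20.1 CPM. In CPM, every pMT and pMT/VitD library was above both surgery libraries, and the VitD libraries lay between surgery and control. The fold change of pMT against surgery was 1.41 (log2 0.49 ± 0.12 SE, edgeR adjusted p = 0.0531), which did not pass the test. Of 25 alternative analyses of this comparison, 19 gave no call either and 6 gave one. In edgeR's exact test on the surgery and pMT libraries only, the log2 change was 0.48 (adjusted p = 0.0295), less than 2-fold. The pMT libraries were all above surgery for 13.2% of all genes tested, and the pMT/VitD libraries for 16.6%. For pMT/VitD against surgery the log2 fold change was 0.36 ± 0.12 (adjusted p = 0.0797), and for surgery against control −0.33 ± 0.14 (adjusted p = 0.224). Both surgery libraries were below both control libraries, as for 34.4% of all genes. For VitD against surgery it was 0.13 ± 0.12, with a 95% interval of −0.12 to 0.37. Libraries pMT/VitD-4 and pMT-4 fell within the range of the other operated libraries for this gene.

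Scaling bore on the Ppargc1a values. Because CPM includes the TMM factors, the order of libraries given above in CPM rests on these factors too. When libraries were scaled by their total only, the median log2 change of all genes moved to 0.25 for surgery against control and to −0.12 for pMT against surgery, where the Ppargc1a values became −0.07 and 0.35. It moved to −0.32 and −0.34 for pMT/VitD set against surgery and against VitD, where Ppargc1a came to 0.036 and −0.11. Relative to the median of all genes the gene was lower after surgery and higher in the other 3 comparisons. Taking off that median nearly restores the TMM scaling, so this is no separate check. Per transcript length the group means were 4.72 ± 0.247 TPM (SD, n = 2) in control, 4.75 ± 0.132 in surgery (n = 2) and 5.82 ± 1.76 in pMT (n = 4). They were 4.50 ± 0.635 in pMT/VitD (n = 4) and 4.92 ± 0.0316 in VitD (n = 3), so TPM did not separate surgery from control. Nor did TPM place every pMT library above surgery. Libraries pMT-1 and pMT-4 were at 4.56 and 4.06 TPM, beside 4.84 and 4.65 TPM in surgery, and the pMT/VitD mean was below that of surgery. The length of Ppargc1a was at percentile 89.8 of the genes tested. Its highest libraries, pMT-2 and pMT-3, had the highest rank correlations of relative expression with transcript length (0.36 and 0.45).

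The Ppargc1a promoter is shown because its best known input is a CRE close to the start site. The RefSeq promoter table (GRCr8 build) places it at chr14:63634058-63634357 on the plus strand, from 250 bases before to 50 after the start. In the line that follows, capitals mark the full CRE, TGACGTCA, at −181 to −174, and the short CRE site CGTCA at 25 to 29. On the other strand this short CRE site reads TGACG.
Ppargc1a: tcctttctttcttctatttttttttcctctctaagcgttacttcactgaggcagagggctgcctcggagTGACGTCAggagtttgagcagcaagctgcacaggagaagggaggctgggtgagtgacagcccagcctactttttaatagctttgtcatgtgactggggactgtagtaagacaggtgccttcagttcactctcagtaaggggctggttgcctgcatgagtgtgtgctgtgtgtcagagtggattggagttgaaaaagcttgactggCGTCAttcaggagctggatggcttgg
A full CRE was present in 1.83% of all 33469 promoters in the table, on either strand, and the short CRE site TGACG in 21.2%. The full CRE holds 2 overlapping short CRE sites, 1 on each strand.

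Sik1 encodes a salt-inducible kinase that CREB induces and that shuts off CRTC coactivators, a feedback on the same pathway. It was measured at 3.77 and 2.73 CPM in control and at 1.12 and 1.76 CPM in surgery. The pMT group gave 3.37, 3.71, 3.96 and 2.03 CPM, pMT/VitD gave 1.49, 2.50, 3.23 and 3.68 CPM, and VitD gave 1.08, 1.59 and 1.89 CPM. Both control libraries and all 4 pMT libraries were above both surgery libraries, while 1 pMT/VitD library overlapped surgery. Surgery was below control in all libraries for 34.4% of all genes, and pMT was above surgery for 13.2%. The log2 fold change of pMT against surgery was 1.18 ± 0.37 (adjusted p = 0.127) on 15 libraries. On 13 libraries Sik1 was higher by 1.34 ± 0.32 (adjusted p = 0.0397) and passed the test. The study's methods call a gene differentially expressed (a DEG) at a 2-fold change together with a p under 0.05 in edgeR's exact test, and do not say whether that p is adjusted. Read here with the unadjusted p on the surgery and pMT libraries, the rule took Sik1 (log2 1.17), which also met it with the adjusted p of 0.0166. That rule took 1.08% of all genes as higher. Surgery against control gave −1.17 ± 0.41 (adjusted p = 0.153). VitD against control gave −1.10 ± 0.36 (adjusted p = 0.0729 on 15 libraries), which passed on 13 libraries at −1.08 ± 0.30 (adjusted p = 0.0323). Its counts were low, 69 to 290 per library.

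The Sik1 promoter, chr20:9958597-9958896 on the minus strand (GRCr8), is shown for its pair of short CRE sites, marked in capitals at −191 to −187 and −180 to −176.
Sik1: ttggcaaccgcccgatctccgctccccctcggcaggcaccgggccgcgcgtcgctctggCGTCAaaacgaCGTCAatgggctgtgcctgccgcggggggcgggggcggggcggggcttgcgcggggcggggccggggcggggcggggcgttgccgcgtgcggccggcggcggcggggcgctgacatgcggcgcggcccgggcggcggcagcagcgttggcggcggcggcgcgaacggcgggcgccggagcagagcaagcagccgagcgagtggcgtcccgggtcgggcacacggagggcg

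Junb encodes a component of the AP-1 transcription factor that in muscle sustains fibre size. Its pattern was the reverse of that of Sik1. The control libraries gave 18.3 and 13.9 CPM and the surgery libraries 26.8 and 29.7 CPM. The VitD libraries gave 34.3, 24.8 and 22.0 CPM, 1 above and 2 below both surgery libraries. The pMT libraries gave 15.8, 17.1, 18.5 and 12.7 CPM and the pMT/VitD libraries 13.8, 15.7, 12.1 and 23.6 CPM, all below both surgery libraries. The pMT libraries were all below surgery for 17.2% of all genes and the pMT/VitD libraries for 20.2%, and surgery was above control in all libraries for 31.7%. Junb was the 1 early gene that passed a comparison of 2 groups on 15 libraries. It fell by 0.73 on the log2 scale in pMT/VitD against VitD (SE 0.21, adjusted p = 0.0252), where 12.2% of all genes were called lower, although pMT/VitD-4 lay above VitD-3. Surgery against control gave 0.81 ± 0.28 (adjusted p = 0.152), pMT against surgery −0.82 ± 0.24 (0.102) and pMT/VitD against surgery −0.79 ± 0.24 (0.0563). All 3 passed on 13 libraries, at 0.84 ± 0.20 (edgeR adjusted p = 0.0355), −0.73 ± 0.18 (0.0432) and −1.03 ± 0.18 (0.00263). In the exact test of pMT against surgery Junb had an unadjusted p of 2.05e-06 and a log2 change of −0.83, under the fold limit of 2.

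The Junb promoter, chr19:40080876-40081175 on the plus strand (GRCr8), is printed for contrast with the CRE of Ppargc1a. Capitals mark its single short CRE site TGACG at −155 to −151. A TATAAA match, found in 8.8% of promoters on the plus strand, lies at −49 to −44 and is not capitalised.
Junb: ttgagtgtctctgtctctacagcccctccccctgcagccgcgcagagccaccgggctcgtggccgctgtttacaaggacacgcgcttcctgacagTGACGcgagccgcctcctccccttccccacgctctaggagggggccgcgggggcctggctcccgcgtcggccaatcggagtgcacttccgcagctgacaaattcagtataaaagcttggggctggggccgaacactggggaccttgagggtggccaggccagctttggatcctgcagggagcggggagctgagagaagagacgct

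Fos and Fosb encode the AP-1 partners of the Jun proteins and are the classic markers of recent activation of a cell. Fos stood at 21.9 and 20.3 CPM in control, 17.7 and 17.0 CPM in surgery, and 16.2, 16.6 and 16.5 CPM in VitD. In pMT it was 8.95, 8.56, 9.10 and 2.33 CPM, and in pMT/VitD 3.13, 4.19, 2.49 and 38.7 CPM. Libraries pMT-1 to 3 were at about the same level, pMT/VitD-1 to 3 were lower than any of them, and pMT/VitD-4 held the highest value of all. All 4 pMT libraries were below both surgery libraries, as for 17.2% of all genes. On 15 libraries the log2 change of pMT against surgery was −1.26 ± 0.84 (adjusted p = 0.559), and Fos met the DEG rule with the unadjusted p (log2 −1.27, p = 0.00557 in edgeR's exact test) but not with the adjusted p of 0.07. With the unadjusted p the rule took 2.96% of all genes as lower. On 13 libraries Fos fell by 0.98 in pMT against surgery (SE 0.15, adjusted p = 0.00406), by 2.41 in pMT/VitD against surgery (SE 0.15, adjusted p = 3.01e-06) and by 1.43 in pMT/VitD against pMT (SE 0.14, adjusted p = 0.000975). On 15 libraries pMT/VitD against surgery gave −0.51 ± 0.85 (adjusted p = 0.758), and pMT/VitD against pMT gave 0.74 ± 0.72 (adjusted p = 0.73), of opposite sign.

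Fosb was present at low level, with 2.54 and 2.13 CPM in control, 0.969 and 0.846 CPM in surgery, and 0.983, 0.771 and 0.963 CPM in VitD. It was measured at 0.674, 0.589, 0.799 and 0.148 CPM in pMT and at 0.172, 0.148, 0.173 and 3.44 CPM in pMT/VitD. The lowest libraries, pMT-4, pMT/VitD-1, pMT/VitD-2 and pMT/VitD-3, rested on 8 counts each. Every pMT/VitD library among the 13 was thus at 8 counts. Control was above every other library except pMT/VitD-4. Both surgery libraries were below control for 34.4% of all genes. On 13 libraries Fosb fell by 1.33 in surgery against control (SE 0.24, adjusted p = 0.013), by 1.33 in VitD against control (SE 0.22, adjusted p = 0.00342) and by 2.46 in pMT/VitD against surgery (SE 0.27, adjusted p = 0.000224). On 15 libraries the same 3 changes were −1.36 ± 1.10 (adjusted p = 0.569), −1.36 ± 0.98 (0.41) and 0.13 ± 0.98 (0.957).

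Egr1, a zinc finger factor induced with Fos through serum response factor, gave 15.2 and 15.6 CPM in control, 8.89 and 8.89 CPM in surgery, and 8.87, 9.11 and 9.12 CPM in VitD. The pMT libraries gave 8.90, 11.004, 14.6 and 3.49 CPM and the pMT/VitD libraries 4.17, 3.91, 4.71 and 24.8 CPM. Surgery and VitD were nearly level with each other, and pMT/VitD-1 to 3 lay below both. On 13 libraries Egr1 fell by 0.76 in surgery against control (SE 0.18, adjusted p = 0.0327) and by 1.07 in pMT/VitD against surgery (SE 0.16, adjusted p = 0.00146). On 15 libraries these were −0.79 ± 0.76 (adjusted p = 0.64) and 0.08 ± 0.66 (0.96). The Egr1 promoter was the 1 of the 7 early gene promoters in the table with serum response elements (the CArG box), of which it held 2, at −105 to −96 and −83 to −74. A CArG box was found in 1.64% of all promoters.

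Atf3, a stress-induced repressor that also rises in cells of injured nerve, showed the widest scatter in pMT. Control gave 39.2 and 39.7 CPM, surgery 63.8 and 64.1 CPM, and VitD 65.5, 61.4 and 59.6 CPM. The pMT libraries gave 109, 65.9, 13.1 and 9.36 CPM and the pMT/VitD libraries 9.21, 12.0, 10.1 and 63.4 CPM. Here pMT-3 as well as pMT-4 was near the level of pMT/VitD-1 to 3, so the pMT group was split even without pMT-4. The log2 change of surgery against control was 0.70 ± 1.02 (adjusted p = 0.775), and on 13 libraries it was not called either. In pMT/VitD against surgery it was −1.43 ± 0.85 (adjusted p = 0.32) on 15 libraries, and on 13 Atf3 fell by 2.62 (SE 0.59, adjusted p = 0.0127).

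The Nr4a genes encode orphan nuclear receptors, of which Nr4a1 and Nr4a3 are strongly induced by exercise and regulate glucose and fat use in muscle. Nr4a1, the most abundant of the 10 genes, gave 174 and 144 CPM in control, 147 and 145 CPM in surgery, and 115, 132 and 147 CPM in VitD. In pMT it was 175, 158, 133 and 107 CPM and in pMT/VitD 100, 102, 124 and 215 CPM. The groups overlapped throughout, and the adjusted p of the five-group test was 0.932. On 13 libraries Nr4a1 fell by 0.44 in pMT/VitD against surgery (SE 0.14, adjusted p = 0.0472) and by 0.51 in pMT/VitD against pMT (SE 0.13, adjusted p = 0.017). On 15 libraries these were −0.11 ± 0.27 (adjusted p = 0.843) and −0.083 ± 0.22 (0.921).

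Nr4a3 was at 12.4 and 12.7 CPM in control, 9.50 and 9.64 CPM in surgery, 10.6, 6.90, 4.30 and 2.74 CPM in pMT, 4.06, 1.71, 3.38 and 22.2 CPM in pMT/VitD, and 10.96, 5.15 and 5.06 CPM in VitD. Control exceeded every library but pMT/VitD-4, and for 34.4% of all genes it exceeded both surgery libraries. The 1 comparison with surgery that passed on 13 libraries was pMT/VitD, in which Nr4a3 fell by 1.67 (SE 0.43, adjusted p = 0.0206), and on 15 libraries that value was −0.29 ± 0.77 (0.86). Nr4a2, better known from neurons, was at 0.495 to 1.23 CPM throughout and passed no test on 15 or 13 libraries. Its largest log2 change from surgery was −0.79 ± 0.31, in pMT/VitD (edgeR adjusted p = 0.13), where all 4 libraries, at 0.756, 0.834, 0.495 and 0.525 CPM, were below the surgery values of 1.12 and 1.13 CPM. All pMT/VitD libraries were below surgery for 20.2% of all genes.

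The Nr4a1 promoter, chr7:134259888-134260187 on the plus strand (GRCr8), is shown for its run of short CRE sites, capitalised at −246 to −242, −226 to −222, −82 to −78 and −53 to −49.
Nr4a1: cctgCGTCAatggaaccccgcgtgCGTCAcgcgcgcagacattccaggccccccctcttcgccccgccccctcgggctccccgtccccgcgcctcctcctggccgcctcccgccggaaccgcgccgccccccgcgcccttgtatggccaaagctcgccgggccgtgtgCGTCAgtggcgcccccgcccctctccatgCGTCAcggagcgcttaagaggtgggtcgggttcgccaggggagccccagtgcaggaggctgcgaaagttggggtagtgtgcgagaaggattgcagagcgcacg
Of the 7 early genes with an entry in the promoter table (all but Nr4a3, Fos and Atf3), 6 held at least 1 short CRE site in this window and Fosb held none. Only Ppargc1a held the full CRE. No match was found in these 7 windows for the AP-1 site TGAGTCA, the EGR site GCGTGGGCG or the NR4A site AAAGGTCA, which occurred in 4.63%, 0.544% and 1.43% of all promoters on either strand.

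**Figure D2:**
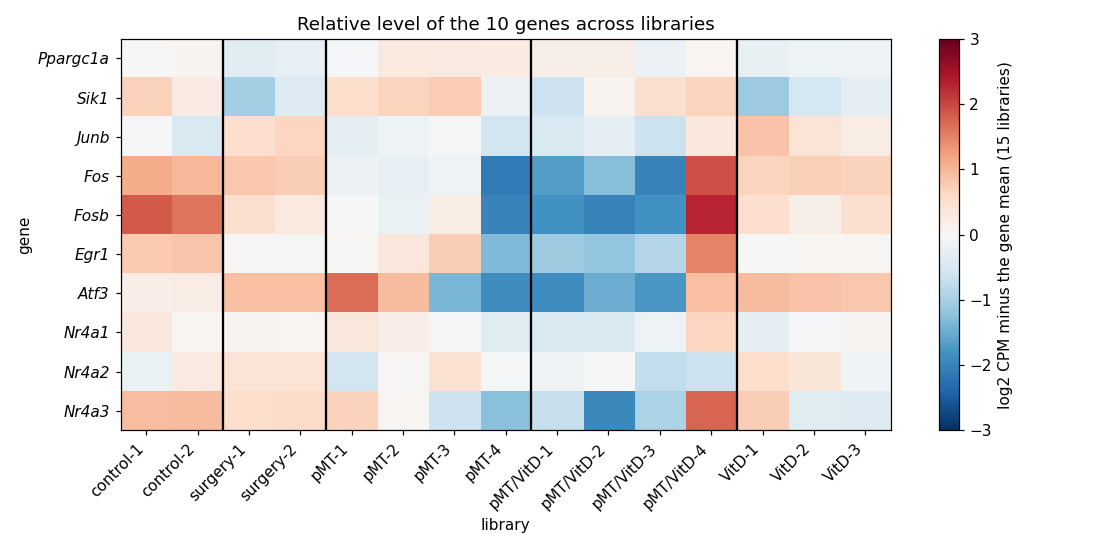
Heat map of the 10 genes (rows) in the 15 libraries (columns), coloured by log2 CPM minus the mean of the gene over all libraries, with vertical lines between groups. Fos, Fosb, Egr1, Atf3 and Nr4a3 are low together in pMT-4 and pMT/VitD-1 to 3, and high in pMT/VitD-4.

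Across the comparisons, the counts of early genes called are set beside those of all genes. On 15 libraries none of the 10 genes passed in 8 of 9 comparisons of 2 groups by edgeR's quasi-likelihood test. The number with an unadjusted p under 0.05 was 3 in surgery against control (17% of all genes), 3 in pMT against surgery (14.3%), 4 in pMT/VitD against surgery (24.8%) and 4 in pMT/VitD against VitD (35.6%). It was 1 in pMT against control (3.07%), 2 in VitD against control (25.8%) and 0 in pMT/VitD against pMT (10.1%), pMT/VitD against control (2.88%) and VitD against surgery (0.808%). DESeq2 called 3 in pMT against surgery (4.34% of all genes) and 2 each in pMT/VitD against surgery (12.9%), pMT/VitD against VitD (27%) and VitD against control (14.4%). The share of all genes called on 15 libraries was 1.55% in surgery against control, 1.94% in pMT against surgery, 7.44% in pMT/VitD against surgery, 8.67% in VitD against control and 0% in the other comparisons without a call among the 10.

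On 13 libraries, a set chosen from these same data, the calls were as follows. Surgery against control had 3 called, with Junb higher and Fosb and Egr1 lower, where 4.17% of all genes were called. In pMT against surgery 3 were called, Sik1 higher and Fos and Junb lower, against 3.15% of all genes. In pMT/VitD against surgery 7 were called, all of them lower, where 10.7% of all genes were called lower. Those 7 were Fos, Fosb, Egr1, Junb, Atf3, Nr4a3 and Nr4a1, and the median log2 change of the 10 genes was −1.05 beside −0.03 for all genes. In pMT/VitD against pMT 5 were called lower (Fos, Fosb, Egr1, Atf3 and Nr4a1), where 8.81% of all genes were. Against VitD 6 of the 10 were lower in pMT/VitD, where 17% of all genes were. These comparisons share libraries, so their counts are not independent of each other.

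The operated groups were also set against uninjured muscle. In pMT against control, Fos fell by 1.24 (SE 0.15) and Fosb by 1.75 (SE 0.22) on 13 libraries, both at an adjusted p of 0.0194, and they were 2 of 4 genes called in all, 0.0233% of those tested. In pMT/VitD against control, Fos fell by 2.66 (SE 0.15, adjusted p = 1.76e-06), Fosb by 3.80 (SE 0.26, adjusted p = 1.01e-05) and Egr1 by 1.83 (SE 0.16, adjusted p = 0.000179). These were 3 of 11 genes called, 0.064% of those tested. On 15 libraries pMT against control gave −1.54 ± 0.83 for Fos and −2.06 ± 0.93 for Fosb (adjusted p of 1 for both). The pMT/VitD values were −0.80 ± 0.84 for Fos, −1.24 ± 0.92 for Fosb and −0.71 ± 0.64 for Egr1, each with an adjusted p of 0.906. No gene of the whole table was then called in either comparison by edgeR's quasi-likelihood test, and 528 and 496 genes had an unadjusted p under 0.05. Limma voom with quality weights called 2 of the 10 genes in pMT against control (1.34% of all genes) and 5 in pMT/VitD against control (10.8%). VitD against control had 4 of the 10 called on 13 libraries, Junb higher and Fosb, Egr1 and Sik1 lower, where 15.1% of all genes were called.

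VitD alone did not change any of the 10 genes detectably against surgery. None of the 10 was called on 15 or 13 libraries and none had an unadjusted p under 0.05 on 15, where no gene of the whole table was called by edgeR and 139 had an unadjusted p under 0.05. The log2 changes of the 10 genes ranged from −0.44 for Nr4a3 to 0.13 for Ppargc1a. The 95% interval was −0.56 to 0.44 for Junb and −0.66 to 0.81 for Sik1, and it was wider for Fos, at −1.85 to 1.69. With the interaction of pMT and VitD, a test chosen after seeing the data, none of the 10 was called on 15 libraries (0% of all genes). On 13 libraries the effect of pMT in the presence of VitD was more negative than in its absence by 1.35 ± 0.21 for Fos (adjusted p = 0.03), 2.05 ± 0.35 for Fosb (0.0312) and 1.45 ± 0.22 for Egr1 (edgeR adjusted p = 0.03), where 1.89% of all genes passed. For each of these genes pMT-4 was the lowest library and pMT/VitD-4 the highest. Leaving them out makes the difference more negative by itself.

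**Figure D3:**
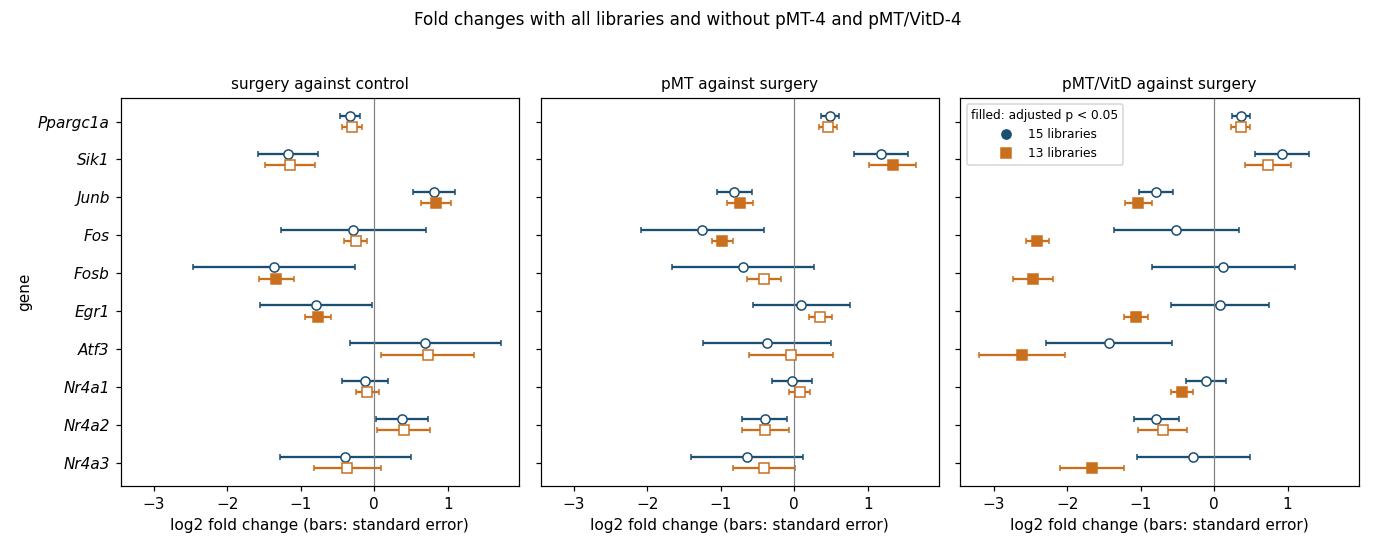
Log2 fold change of the 10 genes (x axis, bars: standard error) in 3 comparisons, on 15 libraries (circles) and on 13 libraries without pMT-4 and pMT/VitD-4 (squares). Filled symbols passed an adjusted p of 0.05, and for Fosb in pMT/VitD against surgery the value moves from 0.13 to −2.46.

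The median scatter of the early genes within pMT and pMT/VitD rested largely on replicate 4, though not that of every gene. The coefficient of variation of the 10 genes had a median of 74.7% in pMT/VitD and 37.2% in pMT, where that of all genes tested was 18.6% and 17.1%. On replicates 1 to 3 alone, a comparison added after seeing the data, the medians were 13.6% in pMT/VitD and 14.5% in pMT, beside 14.0% and 11.8% for all genes. The highest of the 10 values was then still 39.8% in pMT/VitD and 76.8% in pMT. Medians in the other groups were 8.84% in control, 12.54% in VitD and 1.95% in surgery, beside 7.91%, 15.3% and 5.04% for all genes. The 2 surgery libraries were the closest pair of any group, with a spread of log2 ratios of 0.0594 against 0.116 to 0.523 for the other pairs of the same group. Their counts still differed by more than sampling noise (chi-square of 4.66 per degree of freedom, beside 21.8 to 446 for the other pairs). This cannot tell separate rats from 2 preparations of the same tissue. They were counted as 2 samples, and whether they share tissue is not given in the sources used here. Tests that set surgery against another group rest on this pair.

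Levels of Fos, Fosb, Egr1 and Nr4a3 moved together across libraries. Over 15 libraries, which share group and preparation, Pearson's r of log2 CPM between these 4 genes was 0.82 to 0.95. Library pMT/VitD-4 was the highest for all 4, and pMT-4 was the lowest for Fos, Fosb and Egr1. Correlations without these libraries were not computed. Ppargc1a ran apart from them, with r between −0.63 (Junb) and 0.56 (Sik1) against the other 9 genes. Among the 11398 genes whose log2 CPM averaged 1 or more, those most like Ppargc1a were Rnf139 (r = 0.93), Epdr1 (0.92), P4ha2 (0.88), Ndufaf1 (0.88) and Dusp6 (0.88). Among the genes most like Fos were Trib1 (0.97) and Socs3 (0.96), and those most like Nr4a1 were Mafk, Tnfrsf21 and Lrrc41 (0.91 to 0.92). These values describe 15 libraries and carry no test.

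Other immediate early genes, as a list of 31 of which 29 were tested, had 8 called in the five-group test on 15 libraries, beside 11.8% of all genes. In pMT against surgery 3 were called, where 1.94% of all genes were. Dusp1, a phosphatase that switches off MAP kinases, rose by 0.82 (SE 0.18, adjusted p = 0.0335), from 58.4 and 57.8 CPM in surgery to 119, 99.8, 79.8 and 111 CPM. Klf10 rose by 0.53 (SE 0.10, adjusted p = 0.0159), from 36.5 and 39.7 CPM to 52.6, 59.2, 53.2 and 54.5 CPM. Klf6 fell by 0.54 (SE 0.12, adjusted p = 0.0399), from 44.9 and 42.5 CPM to 31.4, 28.9, 30.2 and 29.6 CPM. In all 3, the pMT libraries were on one side of both surgery libraries. They were all above surgery for 13.2% of all genes and all below for 17.2%. Of 25 alternative analyses, the call was lost in 11 for Dusp1, 5 for Klf10 and 13 for Klf6. The median log2 change of the 29 genes was 0.0024 in pMT against surgery, beside 0.02 for all genes.

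Among the regulators upstream, none of the 12 genes of the CREB and SIK axis and none of the 14 of the calcium and MEF2 axis passed the five-group test on 15 libraries. On 13 libraries 2 of each passed, beside 29.8% of all genes, and on 15 the share of all genes was 11.8%. In pMT/VitD against VitD, 3 genes of the CREB and SIK axis were higher and 1 was lower, and 2 of the calcium and MEF2 axis were lower, where 21.9% of all genes were called. Stk11, the kinase LKB1 that activates the SIK and AMPK families, rose by 0.29 there (SE 0.10, adjusted p = 0.0411). Rcan1, a calcineurin target and inhibitor, fell by 1.06 (SE 0.31, adjusted p = 0.0265), and in VitD it ranged from 91.3 to 264 CPM. Of 25 alternative analyses, the Stk11 call was lost in 13, with a change of sign in 1 more, and the Rcan1 call in 5.

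Of the 14 PGC-1 family members and partners, 1 passed the five-group test on 15 libraries, where 11.8% of all genes did. This was Esrra, the orphan receptor through which PGC-1α drives oxidative genes. It rose by 0.51 in pMT/VitD against VitD (SE 0.11, adjusted p = 0.00629), with 63.6, 74.6, 64.5 and 73.2 CPM beside 42.1, 49.7 and 53.9 CPM. In pMT against surgery its change was 0.20 ± 0.13 (adjusted p = 0.519). None of the 14 was called in pMT against surgery on 15 libraries, although 12 had a positive sign (median 0.09, beside 0.02 for all genes).

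Of 18 genes known to follow exercise or PGC-1α, 16 were tested and 5 passed the five-group test on 15 libraries, where 11.8% of all genes did. Slc25a25, a calcium-dependent ATP-Mg/phosphate carrier of mitochondria, had the largest change among those named. It was at 44.4 and 43.0 CPM in control and 14.3 and 14.4 CPM in surgery, and at 57.7, 50.6, 43.8 and 65.8 CPM in pMT. In pMT/VitD it was at 50.0, 38.2, 73.0 and 20.9 CPM, and in VitD at 9.08, 14.3 and 15.4 CPM. All pMT and pMT/VitD libraries exceeded every surgery and VitD library. The pMT libraries were all above surgery for 13.2% of all genes and the pMT/VitD libraries for 16.6%, and the share above VitD was not counted. Slc25a25 rose by 1.92 in pMT against surgery (SE 0.38, adjusted p = 0.0196) and by 1.66 in pMT/VitD against surgery (SE 0.37, adjusted p = 0.0181), and in surgery against control it was −1.60 ± 0.40 (adjusted p = 0.0612).

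Slc2a4, the insulin- and contraction-responsive glucose transporter GLUT4, was at 505 and 516 CPM in control, 377 and 372 CPM in surgery and 525, 544, 570 and 525 CPM in pMT. It did not pass in pMT against surgery (0.53 ± 0.13, adjusted p = 0.0562), and it rose by 0.48 in pMT/VitD against VitD (SE 0.12, adjusted p = 0.0095). Vegfa, the main angiogenic factor, gave 109 and 109 CPM in control, 52.9 and 54.6 CPM in surgery and 95.5, 87.9, 92.9 and 97.6 CPM in pMT. It rose by 0.81 in pMT/VitD against surgery (SE 0.23, adjusted p = 0.0467), and in pMT against surgery the value was 0.80 ± 0.23 (adjusted p = 0.1). The pMT/VitD libraries gave 80.9, 76.5, 145 and 75.8 CPM, and their call was lost in 14 of 25 alternative analyses. Metrnl, the myokine meteorin-like, went the other way. It rose by 1.07 in surgery against control (SE 0.21, adjusted p = 0.026) and fell by 0.80 in pMT against surgery (SE 0.17, adjusted p = 0.0301), with 5.10 and 5.47 CPM in control, 11.01 and 11.2 CPM in surgery and 7.65, 6.58, 6.22 and 5.03 CPM in pMT. For these 3 genes too, no pMT library overlapped surgery, where pMT was wholly above surgery for 13.2% of all genes and wholly below for 17.2%. Of 25 alternative analyses, the Metrnl call was lost in 5 for surgery against control and in 9 for pMT against surgery. The Slc25a25 calls in pMT and in pMT/VitD against surgery were lost in 3 and 4. The median of the 16 genes was −0.33 in surgery against control and 0.43 in pMT against surgery, beside −0.01 and 0.02 for all genes.

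**Figure D4:**
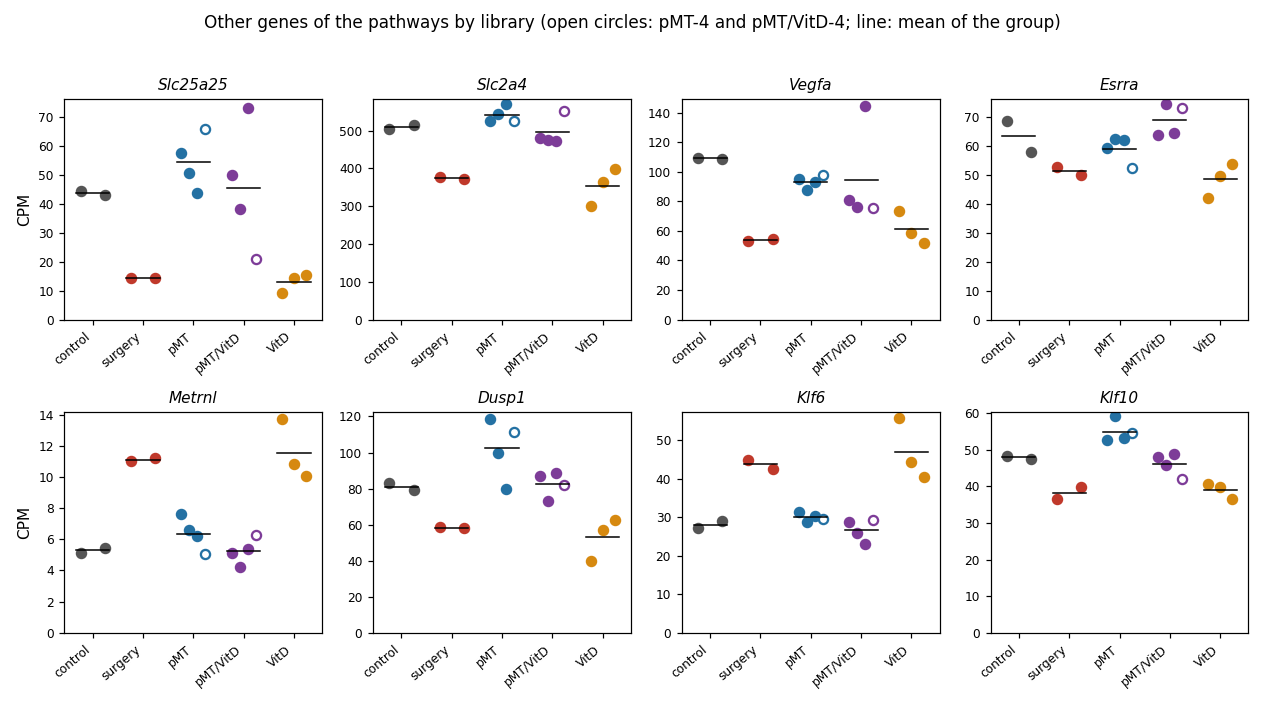
CPM (y axis, from 0) of 8 genes of the exercise, PGC-1 and early gene lists by group (x axis), with 1 point per library and a line at the group mean. Slc25a25 is at 9.08 to 15.4 CPM in surgery and VitD and at 20.9 to 73.0 CPM in pMT and pMT/VitD.

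Markers of other cell types moved with the groups, and in bulk tissue fewer cells of a type and less RNA per cell cannot be told apart. The summed level of 6 macrophage markers was 277 to 281 CPM in surgery and 256 to 346 CPM in VitD, against 144 to 153 CPM in control, 97.8 to 172 CPM in pMT and 90.3 to 170 CPM in pMT/VitD. The 6 fibroblast markers summed to 4373 to 4399 CPM in surgery and 3694 to 6882 CPM in VitD, against 2541 to 2567 CPM in control and 1917 to 2932 CPM in the pMT and pMT/VitD libraries. Junb, Klf6 and Metrnl were high in the same groups. The 5 neutrophil markers summed to 1.01 to 1.28 CPM in control, where 1 was at 0, 3.05 to 3.29 CPM in surgery, 1.25 to 4.29 CPM in pMT, 0.968 to 9.60 CPM in pMT/VitD and 2.67 to 4.41 CPM in VitD. The 5 satellite cell markers ranged only from 29.6 to 37.9 CPM over all libraries. The part of these cell types in the early gene values was not tested. Between 10.7% and 22.6% of counts came from the protein genes encoded in mitochondrial DNA, most in pMT-4, and the rank correlation of relative expression with transcript length ran from −0.39 to 0.45 across libraries, lowest in pMT/VitD-1. The part of these properties in the early gene values was examined by the length correction only, under which Ppargc1a kept its direction in pMT against surgery.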

How the data were processed

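Total RNA of rat multifidus was sequenced in paired-end mode, and groups were taken from the sample labels. Per the submitters' processing notes and the study's methods, the authors removed adapters (Trimmomatic 0.38), mapped reads to rn6 (HISAT2 2.1.0) and quantified genes with StringTie 2.1.3b. They deposited unnormalized counts per gene, used for all tests, with TPM values, used here for levels per length, and FPKM values, which were not used. How strand and multiply aligned reads were counted is not given in the sources used here.

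Counts were analysed in R 4.3.3 with edgeR 4.0.16 (TMM factors, filterByExpr, prior count 2 for log2 CPM). The quasi-likelihood F-test was fitted on all 15 libraries, and calls used a threshold of 0.05 on p-values adjusted by Benjamini and Hochberg over 17201 genes. On 13 libraries 17182 genes were tested. Intervals are 95% normal intervals of the log2 change. The study's DEG rule does not say which p it uses, and the unadjusted p was taken. Alternatives were RLE or library size scaling, other count filters, a length correction, a replicate block, only the groups compared, DESeq2 1.42.0, limma 3.58.1 voom with quality weights, and leaving out libraries.

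The tests were run on simulated counts of 16930 genes: of genes changed 2-fold and 4-fold between pMT and surgery, the quasi-likelihood test recovered 65% and 93% with 7 false calls, and the DEG rule recovered 100% of the 4-fold changes with 226 false calls. Simulated libraries were drawn independently. None was displaced like pMT-4 and pMT/VitD-4, and no pair was made as alike as the surgery libraries, so these rates need not hold for the data. The 10 genes and the other gene lists were chosen with earlier results of these data known. From each list, at most the 3 most abundant genes and the 4 with the smallest p among those passing the five-group test could be named, and genes of similar pattern were ranked by Pearson's r, of which 1 is not reported here. Some list genes have other symbols in the table (Cyr61 for Ccn1, Ctgf for Ccn2). Promoter sequences are from RefSeq, GRCr8, and were not used for rn6 coordinates.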

Additional observations from a re-analysis of the deposited data

Results flagged for a closer look

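Among the 20 groups of 4 libraries (10 genes in pMT and in pMT/VitD), 6 held a library whose gap to the nearest other was above Dixon's 95% critical value, where chance would flag about 1. In pMT/VitD, replicate 4 was above the rest for Nr4a3 (22.2 CPM beside 1.71 to 4.06), Fos (38.7 beside 2.49 to 4.19), Fosb (3.44 beside 0.148 to 0.173), Egr1 (24.8 beside 3.91 to 4.71) and Atf3 (63.4 beside 9.21 to 12.0). In pMT, replicate 4 was below the rest for Fos, at 2.33 CPM beside 8.56 to 9.10. All 6 were replicate 4 of these 2 groups. The genes are measured in the same libraries, so the 6 are not independent.

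On 13 libraries 3 genes were called by edgeR's interaction test of pMT and VitD, which was chosen after seeing the data. Of all libraries, pMT-4 was the lowest and pMT/VitD-4 the highest for each of these genes. Leaving both out therefore makes the difference more negative by itself, and the calls are not independent of that choice. The difference in log2 change was −1.35 for Fos, −2.05 for Fosb and −1.45 for Egr1. On 15 libraries the same differences were 0.82 ± 1.15, 0.83 ± 1.30 and −0.04 ± 0.88, with adjusted p from 0.94 to 0.998.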

How the results depend on the processing

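Counts of the 10 early genes called rested on the libraries and the fit, and the cause was not tested. The number called among all genes is given in brackets, of 17201 tested unless stated. On 15 libraries the count was 2 in the five-group test (2035), 1 in pMT/VitD against VitD (3766) and 0 in the other comparisons of 2 groups (0 to 1492). Scaled by library size only, it was 1 in the five-group test (3579) and 2 in pMT/VitD against surgery (3250). It was then 2 in pMT/VitD against VitD (5758) and 1 in VitD against control (2795). With at least 10 counts in every library (14306 tested) it was 1 in pMT against surgery (334) and 1 in pMT/VitD against surgery (1371). With no filter it was 1 in the five-group test (1800 of 24728). With the length trend removed it was 1 in pMT/VitD against surgery (1809), 3 in pMT/VitD against VitD (4370) and 1 in VitD against control (2378). Fitted on only the groups compared, it was 8 in surgery against control (2 libraries each, 5289 of 16316) and 1 in pMT against surgery (520 of 16609). In pMT/VitD against VitD it was 0 (1816 of 16142), and in VitD against control 1 (96 of 16594). DESeq2 called 3 in pMT against surgery, 2 in pMT/VitD against surgery, 2 in pMT/VitD against VitD and 2 in VitD against control. Limma voom with quality weights called 9 in the five-group test (11466), 5 in surgery against control (4938) and 5 in pMT against surgery (6480). It called 8 in pMT/VitD against surgery (6800), 7 in pMT/VitD against pMT (6617) and 6 in pMT/VitD against VitD (8406). Against control it called 2 in pMT (231), 5 in VitD (6447) and 5 in pMT/VitD (1865). Without pMT 4 and pMT/VitD 4 together (17182 tested) the counts were 8 in the five-group test (5125), 3 in surgery against control (716) and 3 in pMT against surgery (541). They were 7 in pMT/VitD against surgery (3462), 5 in pMT/VitD against pMT (3136) and 6 in pMT/VitD against VitD (5497). Against control they were 2 in pMT (4), 4 in VitD (2589) and 3 in pMT/VitD (11), and in the interaction 3 (325). The DEG rule took 2 of the 10 and, with an adjusted p, 1 (451 of all genes beside 671).

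With 1 library left out at a time, the count ran from 0 to 5 in the five-group test (1133 to 2754 of all genes). It ran from 0 to 1 in pMT against surgery (27 to 740), 0 to 5 in pMT/VitD against surgery (122 to 2199) and 0 to 5 in pMT/VitD against VitD (1855 to 4561). It ran from 0 to 2 in VitD against control (13 to 2396), 0 to 1 in pMT/VitD against control (0 to 2) and 1 to 3 for the DEG rule (597 to 866). It was 0 throughout in pMT against control (0 to 1 of all genes), surgery against control (8 to 1022), pMT/VitD against pMT (0) and VitD against surgery (0 to 1). The highest count of each quasi-likelihood comparison that moved was reached without pMT/VitD replicate 4. The call in pMT/VitD against VitD was lost without pMT/VitD replicate 2 or VitD replicate 1.

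Some log2 changes, none of them called on 15 libraries except Stk11, took the opposite sign. With RLE factors Egr1 in pMT/VitD against pMT was 0.00079. By library size only, Fosb and Egr1 in pMT/VitD against surgery were −0.10 and −0.17, and in pMT/VitD against VitD Ppargc1a, Nr4a3, Fosb, Egr1 and Stk11 were −0.11, −0.13, −0.12, −0.21 and −0.054. Fosb and Egr1 in pMT/VitD against surgery were −2.46 and −1.07 without the 2 libraries and −2.11 and −0.93 by voom. Fos and Fosb in pMT/VitD against pMT were −1.43 and −2.05 without them and −1.08 and −1.50 by voom. Against VitD, Nr4a3, Fosb and Egr1 in pMT/VitD were −1.23, −2.46 and −1.09 without them and −0.65, −1.91 and −0.97 by voom. With 1 library left out, pMT/VitD against surgery ran from −0.44 to 0.0082 for Nr4a1, −1.66 to 0.050 for Nr4a3, −2.46 to 0.49 for Fosb and −1.07 to 0.34 for Egr1. Against pMT it ran from −0.40 to 0.037 for Nr4a1, −1.14 to 1.08 for Fos, −1.75 to 1.19 for Fosb and −1.16 to 0.26 for Egr1. Against VitD it ran from −1.23 to 0.62 for Nr4a3, −2.46 to 0.49 for Fosb and −1.09 to 0.32 for Egr1.

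Libraries of the same replicate number did not deviate together (r from −0.499 to 0.169), and 5 of 15 correlated best with their own number, so the numbers were not taken as a pairing. With a replicate block 0 of the 10 passed the five-group test, 1080 of all genes did beside 2035, and the DEG rule took 1 (752 of all genes). Under the block, Fosb and Egr1 in pMT/VitD against surgery were −1.51 and −0.66, Fos and Fosb in pMT/VitD against pMT were −0.44 and −0.55, and Nr4a3, Fosb and Egr1 in pMT/VitD against VitD were −0.63, −1.43 and −0.59. Over all alternatives, 1718 values of single genes kept their direction and side of the threshold, 225 lost a call, 124 gained one and 49 changed sign. With 2 control and 2 surgery libraries, intervals are wide, and the lowest Fosb values rest on 8 counts.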

Other observations

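The 11 genes of heat shock and handling stress were measured because early genes also answer to handling. On 15 libraries 2 passed the five-group test, the metallothioneins Mt1 and Mt2A, which bind zinc and rise with metals and glucocorticoids, where 11.8% of all genes passed. On 13 libraries 3 passed, beside 29.8% of all genes. Mt1 was at 1.59 and 1.58 CPM in control, 5.52 and 5.78 CPM in surgery and 11.6, 5.68 and 2.73 CPM in VitD. It was at 2.09, 1.47, 1.42 and 1.79 CPM in pMT and at 1.66, 1.95, 1.29 and 1.499 CPM in pMT/VitD, so that neither group overlapped surgery or VitD. The pMT libraries were all below surgery for 17.2% of all genes and the pMT/VitD libraries for 20.2%. Mt1 fell by 1.74 on the log2 scale in pMT against surgery (SE 0.37, edgeR adjusted p = 0.0281) and by 1.82 in pMT/VitD against surgery (SE 0.37, adjusted p = 0.012). Mt2A was at 9.64 and 9.66 CPM in surgery and at 3.27 to 5.78 CPM in pMT, and did not pass in that comparison (−1.10 ± 0.42, adjusted p = 0.227). For both genes, pMT-4 and pMT/VitD-4 lay within the range of the other libraries that received pMT.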
